A study of Homo sapiens with 6 samples.

Results

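The 34 array rows described here measure genes of the cytosolic ribosome in derivatives of HEK293, a line of human embryonic kidney origin. A row was taken where the platform's annotation gave it a single gene symbol and that symbol had the name pattern of a large subunit (RPL, RPLP) or small subunit (RPS, RPSA) protein, leaving out the RPS6 kinases. The rows stand for 29 genes, 17 named for the large and 12 for the small subunit, of 12616 rows with a single symbol and 15492 rows in all. A further 28 rows carry a ribosomal protein symbol together with other symbols and were not used. They hold 22 such symbols, of which 19 are not among the 29 genes, so many ribosomal proteins are not covered.

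The 3 lines carry the HEK293/pcDNA-FRT empty vector (vector line), tet-on wild-type APE1 (wtAPE1 line) or a tet-on fusion of ubiquitin with APE1 (ubAPE1 line). Cells of each line were left untreated (dox-) or given doxycycline, the drug that switches on a tet-on transgene, at 2 µg per ml over 16 h (dox+), all in medium with 1 µg per ml puromycin. APE1 cuts DNA at abasic sites during base excision repair. Whether a line is a single clone is not given in the labels. Each of the 6 groups is 1 column, an average the authors made from 3 biological replicates, so the spread between replicates is not in the values and a comparison of single columns carries no test.

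The ribosome reads mRNA on its small subunit and joins amino acids on its large subunit. Most of its proteins are needed in equal numbers, and their mRNAs begin with a run of pyrimidines (C or T), the 5′ terminal oligopyrimidine (TOP) element, through which growth signalling by mTOR controls their translation. Some also act outside the ribosome: RPL11 binds the p53 inhibitor MDM2 when ribosome assembly fails.

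The shared start is shown first, because it is a feature of these genes that the choice by name did not use. RefSeq start sites (GRCh38.p14) were found for 25 of the 29 genes, with 28 sites in all. At 19 of these sites, in 19 genes, the transcript begins with a C followed by at least 4 further C or T, against 4.07% of all 35116 sites in the table. Each line below gives 10 bases before and 20 bases from the start, 5′ to 3′, with the starting pyrimidine run in capitals. The first 6 genes shown have such a run at the start printed. RPL11 also has a listed start without a run, which is not shown. The other 6 of the 25 genes (RPL4, RPL6, RPL9, RPS27L, RPS29 and RPS4X) have none at any listed start. Of these, 4 that the results below name are shown last. The match was made at the exact listed base, so a run that begins a few bases later, as in RPL4 and RPL9, does not count. Whether these genes have a TOP element was not tested.
RPL41 (chr12:56116623-56116652, plus strand): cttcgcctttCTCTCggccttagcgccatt
RPL11 (chr1:23691796-23691825, plus strand): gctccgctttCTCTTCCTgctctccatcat
RPL18 (chr19:48619159-48619188, minus strand): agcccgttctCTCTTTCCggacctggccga
RPL36 (chr19:5690285-5690314, plus strand): cggcgccagcCCTTCCgccacggccgtctc
RPS25 (chr11:119018324-119018353, minus strand): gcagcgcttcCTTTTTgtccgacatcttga
RPS14 (chr5:150449720-150449749, minus strand): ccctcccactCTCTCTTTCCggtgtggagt
RPS27L (chr15:63157458-63157487, minus strand): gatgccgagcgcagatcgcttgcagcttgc
RPS4X (chrX:72277229-72277258, minus strand): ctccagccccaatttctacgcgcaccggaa
RPL4 (chr15:66504836-66504865, minus strand): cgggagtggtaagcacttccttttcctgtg
RPL9 (chr4:39458903-39458932, minus strand): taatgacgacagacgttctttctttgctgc

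The letters TATAAA were in 0 of the 28 windows of 250 bases before to 50 bases after a member's start, on either strand, against 11.5% of all windows. CCGGAAG, a core that ETS factors recognise, was on either strand in 10 of 28, against 10.3%, and the E-box CACGTG in 1 of 28, against 7.26%. These matches describe the windows and are not binding sites, and the array does not measure how well an mRNA is translated.

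The values are log2 levels, and a row was kept when its mean over the 6 columns was at least 5.03, the 25th percentile of all row means. This kept 11619 rows, among them 31 of the 34. The closest above the limit were RPL41 row 1 (mean 5.08) and RPS13 (5.65), and the 3 left out were RPS19 row 2 (4.32), RPL41 row 2 (4.27) and the single row of RPS29 (3.66). Where a gene has 2 rows, row 1 is the brighter. A response is the dox+ level minus the dox- level of a line, and differences are given relative to the median kept row. That row itself had responses of -0.05 (vector), 0.07 (wtAPE1) and -0.13 (ubAPE1).

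In the check of cell type, 8 of 10 epithelial and kidney markers were kept, all but CDH1 and CDH16. Of the markers with a row, 3 of 4 neuronal, 4 of 4 fibroblast and 2 of 4 blood cell markers were kept too. Passing the filter therefore does not separate these cell types. The neuronal genes NEFL and INA lay between 8.47 and 9.46 and between 7.75 and 8.45 log2. ENO2, also neuronal, was at 7.63 and 7.67 in the vector line and between 4.96 and 5.27 in both APE1 lines. Of the kidney genes, PAX8 lay between 4.91 and 5.25, PAX2 between 5.98 and 6.24 and GATA3 between 6.64 and 6.90. The keratin KRT8 lay between 10.22 and 10.54 log2, while the adhesion gene EPCAM was at 8.03 and 8.30 in the vector line and between 4.90 and 5.30 in both APE1 lines. For wtAPE1 against vector, limma called 3 of the 8 lower (EPCAM, KRT19 and LRP2), beside 2.11% of all kept rows called in either direction. For ubAPE1 against vector it called 2 lower (EPCAM and KRT19), beside 1.39%. Of 3 neuronal markers kept, 2 (NEFL and ENO2) and 1 (ENO2) were called lower, and of 4 fibroblast and 2 blood cell markers, 0. The part of these differences in the line comparisons of ribosomal proteins was not tested.

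Not every row sits where its gene does. Row identifiers on this platform run along the genome, and 99.4% of 12602 rows with 1 located gene had neighbours on their own gene's chromosome. Of the 34 ribosomal protein rows, 26 did and 8 did not. The 8 are RPL4, RPS13, RPS29, RPL14 row 1, RPL27A row 1, RPS25 row 2, RPL41 row 2 and RPS19 row 2. RPL41 row 1 lies between PA2G4 and ZC3H10, neighbours on the chromosome of RPL41, whereas RPL41 row 2 lies between RNF135 and NF1 on another. What these 8 rows hybridise with was not tested. Ribosomal proteins have many near-identical processed copies in the genome, so a row can carry signal from more than 1 locus.

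Levels below are given in a fixed order of columns: vector, wtAPE1, ubAPE1, and within each line dox- before dox+. Responses follow the same order of lines. In these bulk samples, fewer cells of a kind and less RNA per cell cannot be told apart.

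RPL41, the smallest protein of the large subunit, had the largest response of the 31 rows. Its row 1 held 5.31, 5.16, 5.20, 5.21, 4.25 and 5.37 log2. A single column stands apart, the untreated ubAPE1 cells, while the other 5 lay between 5.16 and 5.37. Relative to the median row its responses were -0.10, -0.07 and 1.25. The ubAPE1 value is taken against a column at 4.25 log2, under the limit of 5.03 that the row mean passed only through the other 5 columns, so its size is uncertain. RPL41 row 2, under the filter, held 4.85, 4.68, 3.55, 4.05, 4.45 and 4.02 log2 and gave -0.30 in the ubAPE1 line.

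RPL18, one of the brightest of these rows, held 12.06, 11.41, 11.16, 11.83, 11.50 and 11.66 log2. The columns of the vector and wtAPE1 lines run in opposite directions, and the extremes of all 6 are the untreated columns of these lines. Its responses were -0.60, 0.60 and 0.29. The vector and wtAPE1 values lie just past the limit of 1.5-fold (0.58 log2). The wtAPE1 value was 0.57 with the filter at the 50th percentile, 0.56 after quantile normalization and 0.46 with a trend on level removed, each inside the limit.

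RPL11, which binds the 5S RNA, held 11.21, 10.55, 10.81, 10.76, 10.83 and 10.58 log2. The untreated vector column is the highest, and the other 5 span 10.55 to 10.83. Its responses were -0.61, -0.13 and -0.12. RPL36 held 8.44, 7.76, 8.19, 7.92, 8.29 and 8.31 log2 and had responses of -0.63, -0.35 and 0.15, so that here too the vector line had the lowest response. In RPL11, RPL18 and RPL36 the untreated vector column was the highest of the 6. With a trend on gene length removed, the vector responses of these 3 were -0.58 each, inside the 1.5-fold limit.

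**Figure D1:**
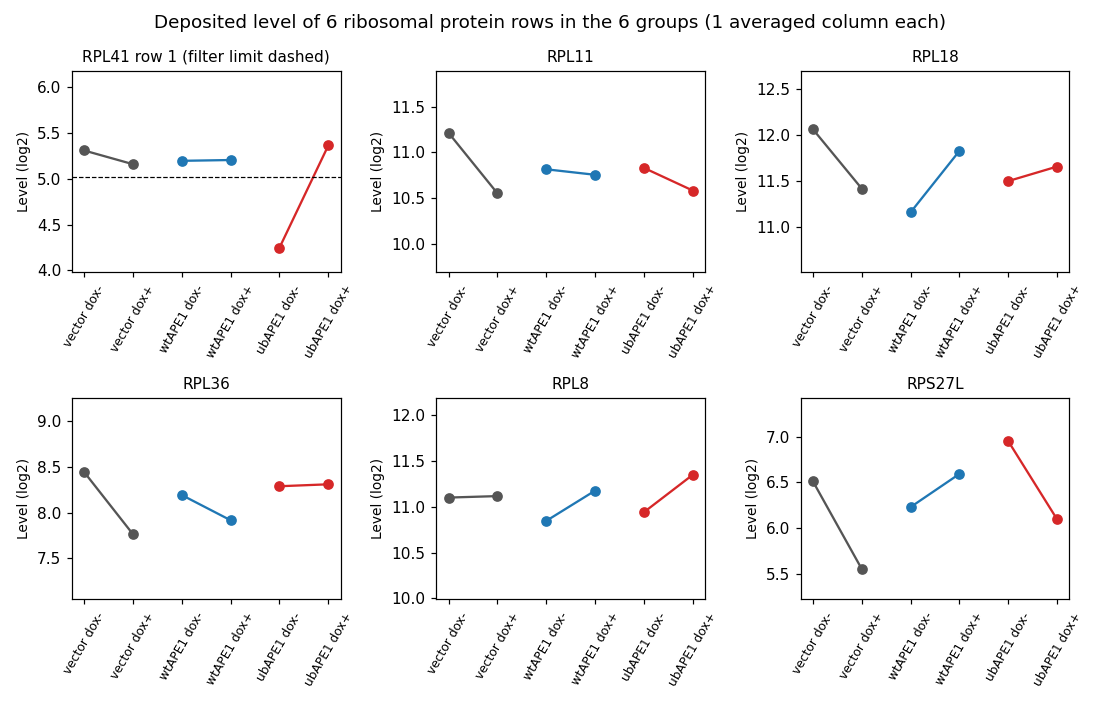
Deposited log2 level (y axis) of 6 ribosomal protein rows in the 6 groups (x axis), 1 averaged column each, with a line joining dox- and dox+ of a cell line. RPL41 row 1 is low in the untreated ubAPE1 column alone (4.25), RPL11, RPL18 and RPL36 are highest in the untreated vector column, and RPS27L is lowest in the treated vector column (5.55).

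RPL8, a protein near the site of peptide bond formation, held 11.10, 11.12, 10.85, 11.18, 10.94 and 11.35 log2. It was above the median row in all 3 responses (0.06, 0.26 and 0.54), least in the vector line. RPL9 held 8.93, 9.15, 8.74, 9.07, 9.15 and 9.31 log2 and had the most even responses, 0.27, 0.26 and 0.29. RPL6 was lower with doxycycline in the vector line and higher in both APE1 lines (-0.31, 0.22 and 0.53).

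RPL22, which also binds viral RNA, held 8.32, 8.41, 8.03, 8.12, 8.56 and 7.91 log2. Its treated ubAPE1 column is the lowest, and the responses were 0.14, 0.01 and -0.52. RPL37A held 6.23, 6.56, 6.05, 5.83, 6.46 and 5.85 log2, with the treated vector column the highest and the treated columns of both APE1 lines the lowest. Its responses were 0.37, -0.29 and -0.49. RPL4, whose loop lines the exit tunnel for the new protein, held 9.50, 9.20, 9.46, 9.39, 9.26 and 8.76 log2 in a row with neighbours on another chromosome. The treated ubAPE1 column is its lowest, with responses of -0.26, -0.14 and -0.37. RPL35, at the rim of that tunnel, was also below the median row in each response (-0.12, -0.03 and -0.41). RPL28 (0.15, -0.07 and 0.09) and RPL35A (0.08, -0.19 and 0.03) lay within 0.19 log2 of the median row in every line.

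In the small subunit, several rows were a little lower with doxycycline in every line. RPS25 row 1, of a protein that some viral RNAs need to recruit the ribosome, held 10.77, 10.27, 10.64, 10.47, 10.46 and 10.15 log2. Every treated column is below its untreated one, with responses of -0.46, -0.25 and -0.18. RPS14, of the platform of the small subunit, held 8.41, 8.31, 8.77, 8.33, 8.80 and 8.26 log2. Here the vector line was nearly level and both APE1 lines were lower with doxycycline (-0.05, -0.52 and -0.41). RPS21 held 6.61, 6.45, 6.64, 6.25, 6.63 and 6.34 log2, with responses of -0.12, -0.46 and -0.16. RPS23, a protein of the decoding centre (-0.21, -0.31 and -0.04), and RPS24 (-0.31, -0.19 and -0.01) were below the median row in all 3 lines too, by little in the ubAPE1 line. RPS4X, encoded on the X chromosome, held 8.27, 7.77, 7.50, 7.55, 7.84 and 7.70 log2, with responses of -0.46, -0.02 and -0.01. Its untreated vector column is the highest of the 6.

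RPS6, the substrate of the S6 kinases, was among the steadiest, between 10.56 and 10.77 log2 in the 6 columns (-0.03, -0.05 and 0.33). RPS15A had responses of 0.12, -0.36 and 0.26. RPS19 row 1, of a gene mutated in Diamond-Blackfan anaemia, a failure of red cell production, held 6.17, 5.85, 6.09, 6.31, 6.30 and 6.13 log2, with responses of -0.27, 0.15 and -0.04. RPS13, a row with neighbours on another chromosome, held 5.49, 5.62, 5.75, 5.88, 5.37 and 5.80 log2. Its responses were 0.17, 0.06 and 0.56, the ubAPE1 value being the highest of the small subunit.

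Of the 3 paralogs, RPS27L, a relative of RPS27 and a target of p53, varied most. It held 6.51, 5.55, 6.23, 6.59, 6.95 and 6.10 log2. The treated vector column is the lowest and the untreated ubAPE1 column the highest. Its responses were -0.91, 0.29 and -0.73, which places it below the median row by more than 1.5-fold in the vector and ubAPE1 lines and above it in the wtAPE1 line. RPL39L, a paralog of RPL39 known from testis, held 6.12, 6.44, 6.29, 6.05, 6.27 and 5.93 log2, with responses of 0.36, -0.32 and -0.21. RPL3L, a paralog of RPL3 known from muscle, held 5.59, 5.84, 5.90, 5.87, 5.59 and 5.98 log2, with responses of 0.30, -0.11 and 0.52. RPS27, RPL39 and RPL3, the genes they resemble, are not among the rows used here.

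**Figure D2:**
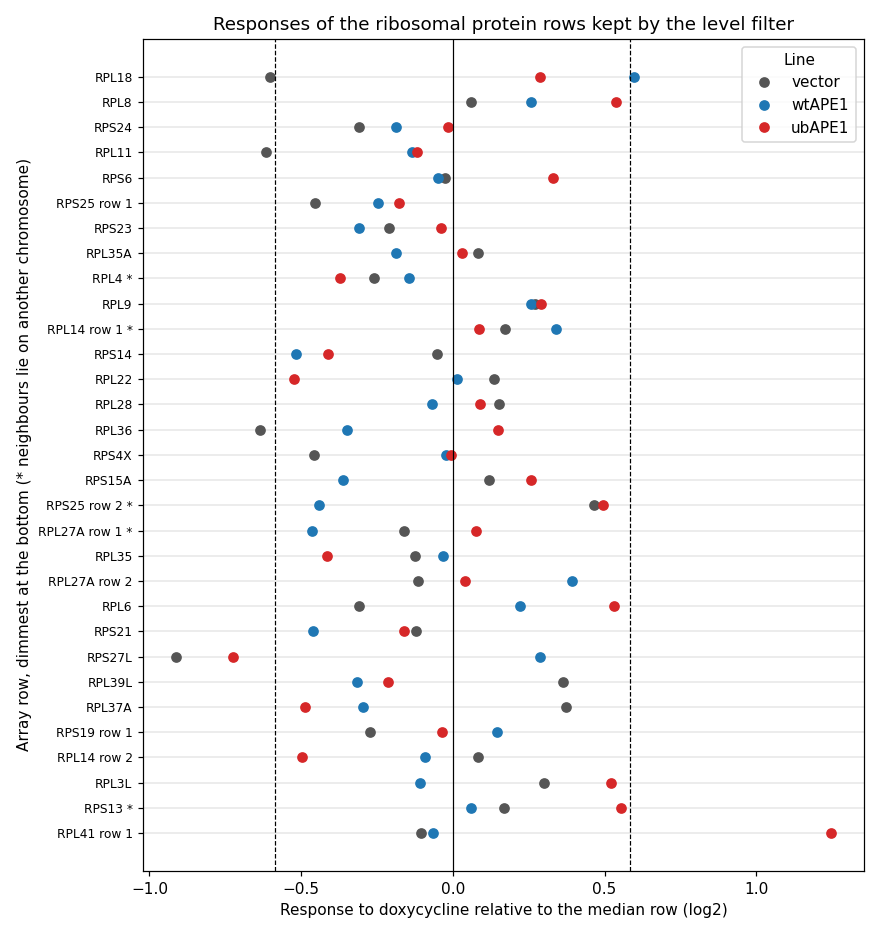
Response to doxycycline relative to the median row (x axis, log2) of the 31 ribosomal protein rows kept by the level filter (y axis, dimmest at the bottom), with 1 point for each cell line and dashed lines at 1.5-fold. RPL41 row 1 in the ubAPE1 line (1.25) and RPS27L in the vector line (-0.91) lie farthest out, and RPL9 is the most even (0.26 to 0.29).

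There are 5 genes with 2 rows, and in each of them 1 row has neighbours on another chromosome. RPS25 row 2 held 7.03, 7.45, 7.46, 7.09, 7.14 and 7.51 log2, with responses of 0.47, -0.44 and 0.50 against -0.46, -0.25 and -0.18 in row 1. The signs differ in the vector and ubAPE1 lines. RPL27A row 1 held 7.56, 7.35, 7.25, 6.85, 7.27 and 7.22 log2 and row 2 6.84, 6.68, 6.77, 7.24, 7.19 and 7.10, with wtAPE1 responses of -0.47 and 0.39. RPL14 row 1 held 8.58, 8.71, 8.31, 8.73, 8.60 and 8.55 log2 and row 2 6.09, 6.12, 5.98, 5.97, 6.14 and 5.52, with ubAPE1 responses of 0.08 and -0.50. For RPL27A and RPL14 the dimmer row is the one with neighbours on the gene's own chromosome. RPS19 row 2, under the filter, held 4.13, 4.28, 4.52, 4.41, 4.26 and 4.30 log2, with a vector response of 0.19 against -0.27 in row 1. The widest gap was that of RPL41 in the ubAPE1 line, 1.55 log2 between its rows.

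**Figure D3:**
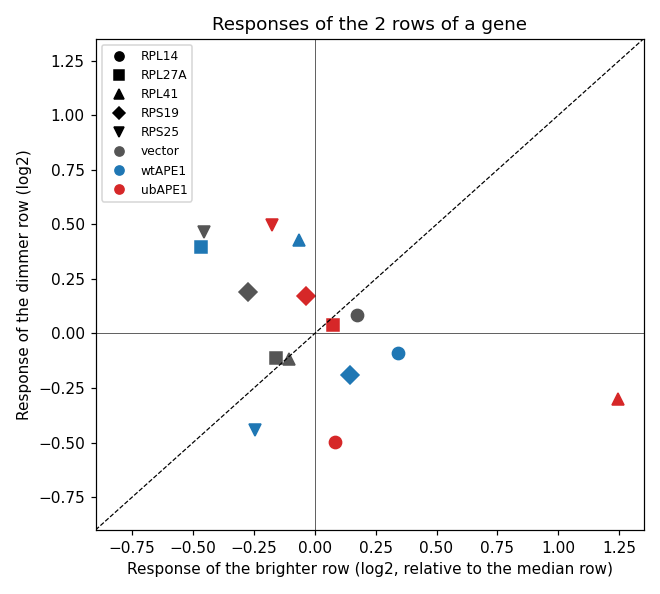
Response of the brighter (x axis) against the dimmer row (y axis) for the 5 genes with 2 rows, in log2 relative to the median row, by gene (symbol) and cell line (colour), with a dashed line of equality. Several points lie far from the line, RPL41 in the ubAPE1 line the farthest (1.25 against -0.30).

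The medians of the 31 rows lay near the median of all kept rows, which is 0 by construction. They were -0.10, -0.09 and 0.03, line by line, with 18, 21 and 15 rows below, against 50% of all kept rows. At least 1.5-fold lower with doxycycline in vector cells were 4 rows (RPS27L, RPL36, RPL11 and RPL18), against 0.602% of all kept rows, and 0 were higher, against 0.344%. In wtAPE1 cells 1 row was higher (RPL18), against 0.508%, and 0 lower, against 0.422%. In ubAPE1 cells 1 was higher (RPL41 row 1), against 1.21%, and 1 lower (RPS27L), against 3.81%. Counts of 0 or 1 among 31 rows say little beside such shares.

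By subunit, the 19 large subunit rows had medians of 0.06, -0.07 and 0.08, and the 12 small subunit rows -0.17, -0.22 and -0.03. Of the 12, 9, 9 and 8 lay below the median row, line by line, and of the 19, 9, 12 and 7. The difference between the subunits was not tested. The middle 50% of the 31 rows ran from -0.29 to 0.14 in vector cells, wider than the -0.11 to 0.11 of all kept rows. In wtAPE1 cells they ran from -0.30 to 0.10, against -0.12 to 0.13, and in ubAPE1 cells from -0.20 to 0.29, against -0.22 to 0.20.

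**Figure D4:**
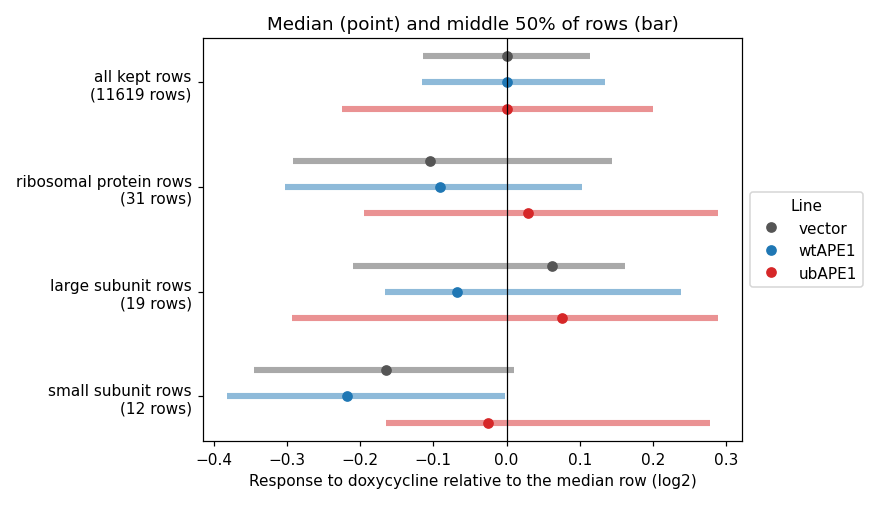
Median response (point) and middle 50% of rows (bar) in log2 relative to the median row (x axis), for all 11619 kept rows, the 31 ribosomal protein rows and the rows of each subunit (y axis), by cell line. The small subunit medians (-0.17, -0.22 and -0.03) lie to the left of the large subunit medians (0.06, -0.07 and 0.08), and the bars overlap.

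The 3 responses share no columns, so the rows that had the same sign in all of them were counted. Below the median row in all 3 lines were 9 of the 31 rows, or 29.0%, against 7.85% of all kept rows. These were RPL11, RPL35, RPL4, RPS14, RPS21, RPS23, RPS24, RPS25 row 1 and RPS4X, with values from -0.61 to -0.01. Above it in all 3 were 4 rows, or 12.9%, against 7.69%: RPL14 row 1, RPL8, RPL9 and RPS13. These counts use the sign alone, with no limit on size, and depend on subtracting the median row. As deposited, RPS4X (0.05) and RPL35 (0.04) were higher with doxycycline in the wtAPE1 line, and RPL14 row 1 (-0.04) was lower in the ubAPE1 line. Among rows with neighbours on their gene's own chromosome the counts were 8 and 2. Rows that share signal, as near-identical sequences can, are not independent of each other.

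Responses were then set against each other between lines, the comparison closest to the effect of induced APE1. The vector response enters 2 of the 3 differences, which therefore share columns. For wtAPE1 minus vector the median of the 31 rows was -0.01. At least 1.5-fold higher were 2 rows, RPS27L (1.20) and RPL18 (1.20), against 2.56% of all kept rows, and 3 were lower, RPS25 row 2 (-0.91), RPL39L (-0.68) and RPL37A (-0.66), against 1.52%.

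For ubAPE1 minus vector the median was 0.15. Higher were 4 rows, RPL41 row 1 (1.33), RPL18 (0.87), RPL6 (0.82) and RPL36 (0.76), against 3.49%, and 4 were lower, RPL37A (-0.88), RPL22 (-0.68), RPL39L (-0.60) and RPL14 row 2 (-0.60), against 9.74%. For ubAPE1 minus wtAPE1 the median was 0.12. Higher were 4 rows, RPL41 row 1 (1.32), RPS25 row 2 (0.95), RPL3L (0.64) and RPS15A (0.63), against 4.58%, and RPS27L (-1.0001) was lower, against 7.66%. With the trend on gene length removed, the 2 medians that hold the ubAPE1 response were -0.028 and -0.030. The part of gene length in these values was not tested further.

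Between lines in the same doxycycline state, few rows passed 1.5-fold. For wtAPE1 minus vector without doxycycline, RPS25 row 2 (0.64) was higher, against 1.96% of all kept rows, and RPL18 (-0.69) lower, against 5.14%. With doxycycline RPS27L (1.11) and RPL27A row 2 (0.62) were higher, against 1.33%, and RPL37A (-0.67) lower, against 4.64%. RPS27L differed by -0.07 without the drug, so its gap to the vector line is in the treated columns.

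For ubAPE1 minus vector without doxycycline, 0 rows were higher, against 1.08%, and RPL41 row 1 (-1.02) lower, against 2.93%. With it RPL36 (0.65) and RPS27L (0.65) were higher, against 2.25%, and RPL37A (-0.61) lower, against 8.78%. For ubAPE1 minus wtAPE1 without doxycycline, 0 rows were higher, against 1.01%, and RPL41 row 1 (-1.12) was lower, against 0.895%. With doxycycline 0 rows passed in either direction, against 0.172% and 0.267%. The medians of the 31 rows in these 6 differences lay between -0.14 and 0.15.

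Tests were possible only across columns. In a limma fit with terms for cell line and doxycycline, the lines stand in for replicates of doxycycline and the 2 doxycycline states for replicates of a line, so a p-value measures the spread between these, not between cultures. Coefficients are on the scale as deposited, with the SE. For a doxycycline effect common to the lines, 0 of the 31 rows passed, against 0% of all kept rows. Beside 1.67% of all kept rows (194), 2 of the 31 had an unadjusted limma p under 0.05. These were RPS14 (-0.36 ± 0.14, limma adjusted p = 1.00) and RPS25 row 1 (-0.33 ± 0.13, limma adjusted p = 1.00), each lower in 3 of 3 lines. The median coefficient was -0.09 over the 31 rows and -0.03 over all kept rows.

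For wtAPE1 against vector, 0 of 31 rows passed, where limma called 2.11% of all kept rows, and 2 had an unadjusted p under 0.05, against 17.1% of all kept rows. RPS4X had the lowest p (-0.49 ± 0.18, limma adjusted p = 0.219), lower in wtAPE1 cells in 2 of 2 doxycycline states. RPL27A row 1 followed (-0.41 ± 0.16, limma adjusted p = 0.248), a row with neighbours on another chromosome. Relative to the median row RPS4X differed by -0.56 without and -0.15 with doxycycline. The median coefficient was -0.05 over the 31 rows and -0.15 over all kept rows, with 24 of the 31 above the latter and 7 below. For ubAPE1 against vector, 0 of 31 passed, against 1.39% of all kept rows, and 0 had an unadjusted p under 0.05 in limma, against 11.5%. The lowest p values were those of RPL4 (-0.35 ± 0.16, limma adjusted p = 0.492) and RPL27A row 2 (0.38 ± 0.19, limma adjusted p = 0.522). Here the median coefficient was -0.05 over the 31 rows and -0.08 over all kept rows, with 17 of the 31 above the latter and 14 below.

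For ubAPE1 against wtAPE1, 0 of 31 passed, against 0%. RPL4 alone had an unadjusted p under 0.05 (-0.42 ± 0.16, limma adjusted p = 1.00), against 0.405% of all kept rows (47). RPL9 followed (0.32 ± 0.15, limma adjusted p = 1.00). The median coefficient was 0.03 over the 31 rows and 0.06 over all kept rows, with 12 of the 31 above the latter and 19 below. A fit that adds a term for the 2 columns with APE1 switched on called 0 of 31 rows and 0% of all kept rows. Its lowest p values were those of RPL18 (1.06 ± 0.39, limma adjusted p = 1.00) and RPL37A (-0.75 ± 0.38, limma adjusted p = 1.00). Only RPL18 had an unadjusted p under 0.05, against 0.749% of all kept rows (87). RPL18 was higher than the vector response in 2 of 2 lines. That fit leaves 1 residual degree of freedom.

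With each column centred on its median, RPS27L passed in both APE1 comparisons with the vector line, higher by 0.56 ± 0.18 in wtAPE1 cells (limma adjusted p = 0.0362) and 0.60 ± 0.18 in ubAPE1 cells (limma adjusted p = 0.0211). In that setting limma called 5.65% and 4.64% of all kept rows. Without centring the coefficients of RPS27L were 0.38 and 0.49, with limma adjusted p-values of 0.499 and 0.624. Its values scattered widely about that fit, with a residual SD of 0.52 log2, the highest of the 31 rows (median 0.16). Relative to the median row, wtAPE1 cells were higher in 1 of 2 doxycycline states (-0.07 without and 1.11 with the drug) and ubAPE1 cells in 2 of 2 (0.48 and 0.65).

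Other genes of translation and ribosome assembly were taken from lists, and 0 of their kept members passed in limma in any of the 5 contrasts, beside the 0% to 2.11% of all kept rows given above. Of 61 genes for ribosome assembly factors, 4 were lower with doxycycline in ubAPE1 cells by 1.5-fold or more, against 3.81% of all kept rows, and 0 higher, against 1.21%. Their median was -0.10. RRP15 (-0.71) and RIOK2 (-0.63), which mature the large and the small subunit, were the lowest. Of 13 genes for RNA polymerase I, which makes ribosomal RNA, and its factors, the ubAPE1 median was -0.08. POLR1B, a core subunit of the enzyme, was at -0.62 and TAF1B at -0.54, while POLR2L was at 0.54 and POLR2E at 0.40.

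Of 27 initiation factors, 2 were 1.5-fold lower in the ubAPE1 line, against 3.81% of all kept rows, and the median was -0.11. They were the cap-binding EIF4E (-1.23) and EIF5B (-0.63), which joins the subunits. EIF4E held 7.23, 7.08, 6.96, 6.24, 7.23 and 5.88 log2, so both treated APE1 columns are its lowest. Of 10 elongation and termination factors the ubAPE1 median was -0.10, with ABCE1, which splits the ribosome after termination, at -0.86 and EIF5A2 at -0.48. In the other direction EIF5A was at 0.37 and EEF1A2 at 0.33. Of 15 regulators of mTOR and TOP mRNAs it was 0.02, with RICTOR at -0.59 and MLST8, a subunit shared by both mTOR complexes, at 0.38. Of 9 genes for import and chaperones it was -0.15, with RPF2, which helps place the 5S particle, at -0.44 and BTF3, of the complex that binds new chains, at 0.41.

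In the vector and wtAPE1 lines the medians of these lists lay between -0.02 and 0.23. RPL36AL and RPL13AP3, with ribosomal protein names outside the rule, were at 0.55 and 0.61 in the ubAPE1 line. The other ribosomal proteins listed for their place or for disease were members themselves: 6 kept genes of Diamond-Blackfan anaemia had median responses of -0.29, -0.08 and -0.03, line by line.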

How the data were processed

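The members and gene lists were chosen with earlier results of these data known. Values are log2 expression per array row, deposited by the authors as averages of 3 biological replicates. That they are log2 was taken from their range. The build is hg18, per the submitters' processing notes. Normalization: not given in the sources used here. Symbols came from the platform's annotation, and all 34 member rows matched the RefSeq gene table. No pair of columns was identical.

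The level filter was set at the 25th percentile of row means. limma 3.58.1 under R 4.3.3 was run on values as deposited (2 residual degrees of freedom, 1 with the induction term), adjusting by Benjamini-Hochberg across kept rows, at a threshold of 0.05. The fits were tested on simulated data. Named with all columns are RPL41, RPL11, RPL18, the 3 highest and 3 lowest responses per line, the lowest p-values, genes with 2 rows and paralogs. From each list of translation and ribosome assembly genes, the 2 with the largest ubAPE1 change are named. Of the cell type markers, those that limma called are named. Other names, further markers among them, were chosen after their values were seen. Alternatives covered filter, scaling, trends, row choice, size rule, limma options and leaving out lines.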

Additional observations from a re-analysis of the deposited data

Results flagged for a closer look

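For 3 rows the responses of 2 lines had opposite signs and differed by at least 2-fold, and none of these differences was tested. RPS27L gave 1.20 log2 for wtAPE1 minus vector and -1.0001 for ubAPE1 minus wtAPE1. RPL18 gave 1.20 for wtAPE1 minus vector. RPL41 row 1 gave 1.33 for ubAPE1 minus vector and 1.32 for ubAPE1 minus wtAPE1, both through the single untreated ubAPE1 column (4.25 log2, under the level limit of 5.03).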

How the results depend on the processing

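Each group is 1 averaged column, so a real difference in a single row, dim or bright, cannot be told from noise here. Rows close to the level filter are the least certain. The columns carry no replicate numbers, and the limma fits already hold the cell line as a term, which pairs dox- with dox+ of a line. The main counts of ribosomal protein rows past 1.5-fold in either direction were 4 (vector), 1 (wtAPE1) and 2 (ubAPE1), and 5, 8 and 5 for wtAPE1 minus vector, ubAPE1 minus vector and ubAPE1 minus wtAPE1. With the filter at the 50th percentile the wtAPE1 count was 0, the ubAPE1 count 1 and the ubAPE1 minus vector count 5. With the length trend removed the vector count was 1 and the ubAPE1 count 6, and the medians of ubAPE1 minus vector and minus wtAPE1 were -0.028 and -0.030. Without subtracting the median row the ubAPE1 count was 5 and the median of ubAPE1 minus wtAPE1 was -0.095. Without paralogs the ubAPE1 count was 1, and those of wtAPE1 minus vector and ubAPE1 minus wtAPE1 were 3 and 3. At 2-fold the 6 counts were 0, 0, 1, 2, 1 and 2. Choices made after seeing the data were rows with neighbours on their gene's chromosome and rows of at least 7 log2. Of the former, 2 were higher in all 3 lines. The latter gave counts of 0 (ubAPE1), 2 (wtAPE1 minus vector), 3 (ubAPE1 minus vector) and 2 (ubAPE1 minus wtAPE1). Centring the columns gave limma calls of 1 row, RPS27L, for wtAPE1 and 1 for ubAPE1 against vector. The median coefficient for wtAPE1 against vector, -0.05 as deposited, was 0.13 with centring and 0.14 after quantile normalization. As deposited, the median coefficient over all kept rows was -0.15, and that of the 31 rows lay 0.10 above it. Centring moves the coefficient of every row in a contrast by the same amount, so that change is not particular to these rows. The causes of the other shifts were not tested. For the common doxycycline effect, leaving out each line in turn gave median coefficients of -0.11 (without vector), -0.14 (without wtAPE1) and -0.039 (without ubAPE1) for the 31 rows. The count of limma calls was 0 in the full fit and could hardly pass with fewer columns, so it says nothing about stability.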
